A study of Mus musculus with 7 samples.

Results

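The transcripts of 10 carrier proteins and inhibitors of blood plasma, Alb, Afp, Gc, Ahsg, Fetub, Ttr, Rbp4, Hpx, Itih1 and Itih3, were followed in cultured mouse hepatocytes with and without Wdr6. The genes were chosen by name, from 14819 rows of the count table, and all 10 passed the filter on low counts that left 14779 genes for testing. The cells had been freed from livers of male mice with collagenase, and they spent a night in culture in medium with serum, untreated, before RNA was taken. The WT group had 4 libraries, and the Wdr6 knockout group, WDR6-WKO, had 3 libraries from whole-body knockout mice in which the second exon of Wdr6 had been removed by CRISPR–Cas9. The deletion was in every tissue of the WDR6-WKO mice, not in hepatocytes alone, and strain and age were not given for these libraries in particular, the mice of the study being in general C57BL/6J of 7 weeks. The study's methods call its replicates biological, while the labels do not tie each library to a mouse, and the p-values measure the spread between these libraries. The comparison asks which of the 10 transcripts differed between WDR6-WKO and WT hepatocytes.

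Hepatocytes secrete most of the protein of blood plasma, and the transcripts of these proteins are among the most abundant in the cell. Albumin, alpha-fetoprotein (Afp) and the vitamin D-binding protein (Gc) belong to one family and carry fatty acids, sterols and vitamin D. Fetuin-A (Ahsg) and fetuin-B (Fetub) are cystatin-domain proteins, transthyretin (Ttr) and retinol-binding protein (Rbp4) travel together as a complex that carries thyroxine and retinol, haemopexin (Hpx) binds free haem, and Itih1 and Itih3 are heavy chains of the inter-alpha-trypsin inhibitors, which attach to hyaluronan. Several of the genes lie next to relatives: Alb and Afp are neighbours on chromosome 5, with Gc on the same chromosome, Ahsg and Fetub are neighbours on chromosome 16, and Itih1 and Itih3 are neighbours on chromosome 14.

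The upstream sequences of the albumin pair and of the fetuin pair are shown because each pair lies side by side, and the log2 fold changes given below were far apart for the 2 fetuins and close for Alb and Afp. RefSeq promoter windows (GRCm38.p6) matched 9 of the 10 genes, Ttr having no entry. The 150 bases before the annotated start were taken for Alb (chr5:90460720-90460869, plus strand), Afp (chr5:90490564-90490713, plus strand), Ahsg (chr16:22891865-22892014, plus strand) and Fetub (chr16:22918232-22918363, plus strand, the first 132 of these bases). They read 5′ to 3′ along the gene, with capitals for matches on either strand to CCAAT (the CCAAT box), TATAAA (the TATA box) or GCAAT (a half-site of C/EBP factors):
Alb: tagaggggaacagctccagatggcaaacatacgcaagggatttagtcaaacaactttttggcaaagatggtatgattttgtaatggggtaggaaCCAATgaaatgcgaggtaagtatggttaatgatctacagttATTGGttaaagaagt
Afp: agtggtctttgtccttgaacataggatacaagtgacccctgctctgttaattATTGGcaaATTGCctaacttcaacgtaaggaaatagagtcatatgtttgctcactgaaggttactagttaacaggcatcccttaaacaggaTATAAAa
Ahsg: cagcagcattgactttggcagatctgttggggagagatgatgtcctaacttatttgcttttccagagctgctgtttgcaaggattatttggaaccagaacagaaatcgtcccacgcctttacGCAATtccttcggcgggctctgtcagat
Fetub: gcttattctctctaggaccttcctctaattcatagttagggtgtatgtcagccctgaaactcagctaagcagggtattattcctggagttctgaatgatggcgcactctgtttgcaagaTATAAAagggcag

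The Alb stretch held CCAAT in 2 places, ending 52 and 11 bases before the start, and the Afp stretch held it once, ending 94 bases before the start. Over the 250 upstream bases of all 32851 windows, 33.8% held CCAAT, and so did 6 of the 11 windows of the 9 genes (Alb, Afp, Gc, Fetub, Rbp4 and Hpx). The Ahsg window held GCAAT, present in 23.1% of all windows, and no match to the other 2 motifs. The Fetub window held TATAAA, ending 26 bases before the start and present in 12.4% of all windows, and a CCAAT match farther upstream than the stretch shown. Among the 9 genes, GCAAT was found for Afp, Ahsg and Rbp4, and TATAAA for Afp, Fetub and Rbp4. GENCODE M21, used for the gene coordinates given with the values, places some starts elsewhere. It has 2 of 8 Ahsg transcripts starting upstream of the RefSeq start, the farthest by 738 bases, so the Ahsg stretch lies between exons of those transcripts, and its nearest other start is at 22892037. It has 1 of 7 Fetub transcripts starting 48 bases upstream, so the end of the Fetub stretch, TATAAA included, lies in the first exon of that transcript. For Alb and Afp the earliest GENCODE starts lie 27 and 23 bases downstream of the RefSeq starts. Counted from those GENCODE starts, the CCAAT matches of Alb and Afp lie that much farther upstream. A match describes these letters in the window and says nothing of binding.

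The libraries held 17816913 to 23668940 counted reads each. Reads of the targeted gene, Wdr6, numbered 972, 776, 769 and 909 in WT and 62, 49 and 40 in WDR6-WKO. Hepatocyte markers were present in every library, and 5 of 8 were called lower in WDR6-WKO, among them Cps1 (log2 fold change −0.69). The median log2 fold change over the list was −0.51. Over all tested genes, 6.18% were called lower and 6.65% higher. The summed level of the 8 hepatocyte markers, most of it Apob, overlapped between the groups. It was 6616 to 7593 CPM (a gene's reads scaled to a common library size) in WT and 5868 to 7069 in WDR6-WKO. Apob (5845 CPM in WT and 5429 in WDR6-WKO), Ass1 and Tat were not called. Markers of other liver cells were also present. The summed level of 12 Kupffer cell markers was 860 to 939 CPM in WT and 993 to 1191 in WDR6-WKO, with 3 markers called higher (Lyz2, C1qc and C1qb). The other Kupffer cell markers were not called, and Timd4 alone among them was lower (3.65 CPM in WT and 2.59 in WDR6-WKO). The summed level of 5 cholangiocyte markers, most of it Spp1, was 3068 to 3360 CPM in WT and 3714 to 4306 in WDR6-WKO, with 2 called higher (Spp1 and Sox9), while the other 3, Krt19, Krt7 and Epcam, were at 148, 3.10 and 0.849 CPM in WT and at 143, 2.87 and 1.08 CPM in WDR6-WKO and were not called. Of 7 stellate cell markers 1 was called (Dcn, higher), and of 6 endothelial markers none. Of 5 erythroid markers listed only Alas2 was tested, and of 4 other leukocyte markers only Ptprc, and neither was called. Their part in the results was not tested, and in bulk RNA fewer hepatocytes and less of a transcript in each hepatocyte cannot be told apart.

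WDR6-WKO hepatocytes had 51.2% of the Ahsg transcript level of WT hepatocytes. Afp was slightly lower, by a call lost in 8 of 14 alternative fits, and the other 8 transcripts did not pass the test in either direction. The 10 genes together took 1.76% ± 0.141 of counted reads in WT (SD, n = 4) and 1.59% ± 0.0401 in WDR6-WKO (SD, n = 3), a difference within the spread of the libraries by a two-sided exact permutation test (p = 0.143). With edgeR's quasi-likelihood test and Benjamini-Hochberg adjustment over all genes, 2 of the 10 were called lower and none higher, where 6.18% of all tested genes were called lower and 6.65% higher. At an unadjusted p under 0.05 5 of the 10 were lower, against 13.6% of all tested genes, and none was higher. The median log2 fold change of the 10 genes was −0.10, against 0.01 for all tested genes. Leaving out WDR6-WKO replicate 3 raised the calls among the 10 from 2 to 4, and those among all genes from 914 to 2083 lower and from 983 to 2150 higher. Leaving out WDR6-WKO replicate 2 reduced them to 1 among the 10, and to 462 lower and 570 higher among all genes.

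**Figure D1:**
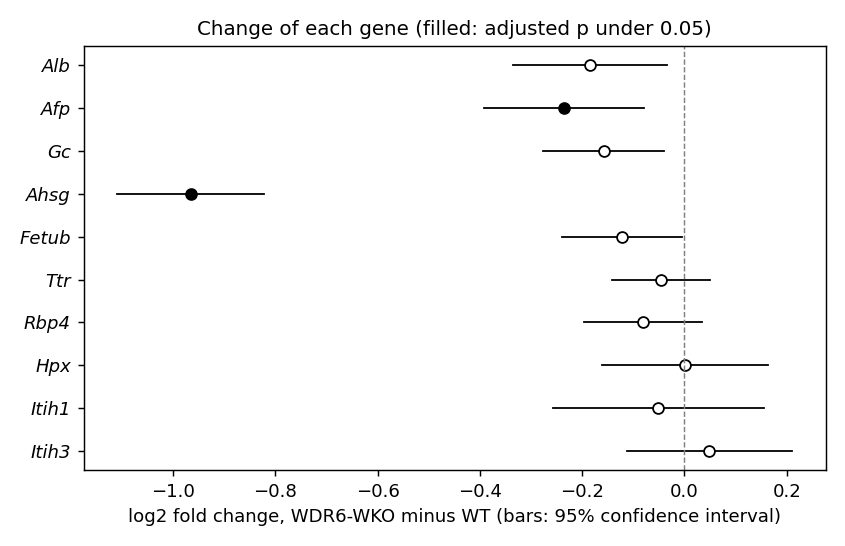
Log2 fold change of each of the 10 genes in WDR6-WKO against WT hepatocytes (points) with 95% confidence intervals (bars), filled where the adjusted p was under 0.05. Ahsg stands apart at −0.97, and the other 9 genes lie between −0.24 and 0.05.

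Levels set per kilobase of transcript spanned a wide range. In WT, Alb was highest at 3621 ± 359 CPM per kb and Hpx was next at 3043 ± 363 (SD, n = 4), and their library ranges overlapped. Gc followed at 1616 ± 110, Ahsg at 1091 ± 85.5, Rbp4 at 507 ± 11 and Ttr at 397 ± 13.4 CPM per kb. Itih3 at 56.3 ± 7.0, Fetub at 46.6 ± 1.80, Afp at 15.1 ± 0.819 and Itih1 at 10.3 ± 0.828 CPM per kb were the low members. Apart from Alb and Hpx, no pair of neighbours in this order had overlapping WT ranges. In WDR6-WKO, Ahsg stood at 559 ± 45.9 CPM per kb, close to Rbp4 at 479 ± 39.9 (SD, n = 3).

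**Figure D2:**
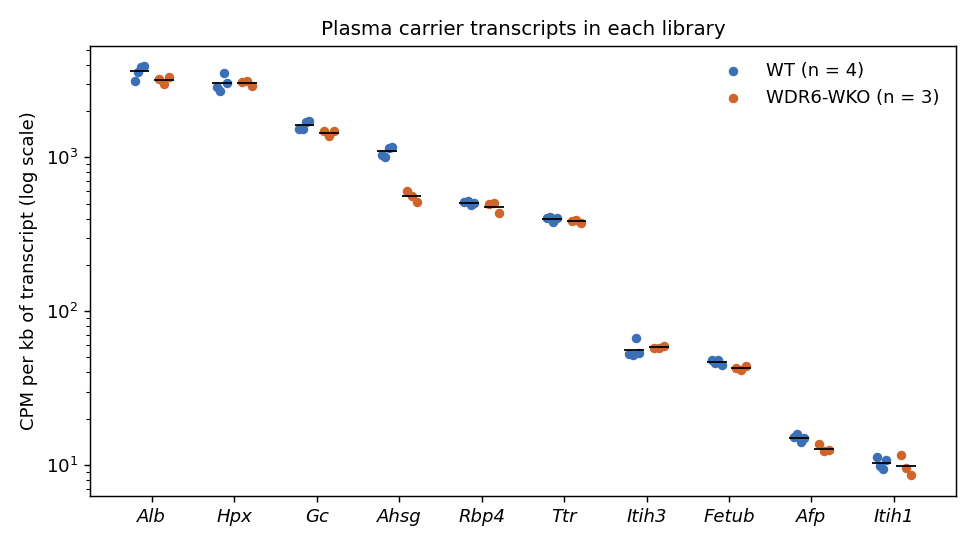
Level of each transcript in CPM per kilobase of transcript (log scale), ordered by the WT mean, with 1 point per library and a line at the mean of the 4 WT and 3 WDR6-WKO libraries. Ahsg is the gene whose 2 groups lie farthest apart.

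Fetuin-A is a liver glycoprotein that binds calcium phosphate and inhibits the insulin receptor kinase. Ahsg (ENSMUSG00000022868, chromosome 16, 22891277 to 22899449, plus strand, 7 exons) was at 1536, 1486, 1714 and 1741 CPM in the WT libraries and at 899, 827 and 762 CPM in the WDR6-WKO libraries. The lowest WT library was above the highest WDR6-WKO library by a wide margin. The log2 fold change was −0.97 (SE 0.07, 95% confidence interval −1.11 to −0.82), with an edgeR adjusted p of 3.43e-07, which left WDR6-WKO at 51.2% of the WT level. The exact permutation p was 0.0286, the smallest that 35 splits of these libraries can give. Its exons share 62 bases with a gene on the opposite strand, Gm30505, and 0.976% of its 50-base stretches occur there. Reads of the 2 genes cannot be told apart in that stretch. The kit named does not mark strand in its basic form, and the use of strand in counting was not given. The call held in all 14 alternatives, with log2 fold changes from −1.03 to −0.91.

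Fetuin-B, a protease inhibitor that keeps the egg coat from hardening early, is encoded 18.9 kb downstream of Ahsg. Fetub was at 77.0, 73.3, 76.4 and 70.8 CPM in WT and at 68.1, 66.6 and 70.4 CPM in WDR6-WKO. The groups did not overlap, but the lowest WT and the highest WDR6-WKO library were nearly level. The log2 fold change was −0.12 (SE 0.06, interval −0.24 to −0.00), with an edgeR adjusted p of 0.163, and it was called when WDR6-WKO replicate 3 was left out (edgeR adjusted p = 0.0464). The ratio of Ahsg to Fetub counts was 19.9, 20.3, 22.4 and 24.6 in WT and 13.2, 12.4 and 10.8 in WDR6-WKO. The ratio differed by −0.84 on the log2 scale (exact permutation p = 0.0286, the smallest possible, and 0.143 when adjusted over this ratio and the 4 partner ratios below).

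Divided by each other carrier, Ahsg gave the same picture, which restates its own change because the other genes moved little. In all 9 ratios the highest WDR6-WKO library lay below the lowest WT one, with log2 differences from −0.73 against Afp to −1.02 against Itih3. The ratio to Alb, for example, was 0.242, 0.204, 0.218 and 0.219 in WT and 0.137, 0.136 and 0.112 in WDR6-WKO. The 9 ratios share the Ahsg counts, and those other than the ratio to Fetub are given without a test. Of the ratios between partners, none of Alb to Afp, Alb to Gc, Ttr to Rbp4 and Itih1 to Itih3 passed the exact permutation test (each at adjusted p = 0.686).

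**Figure D3:**
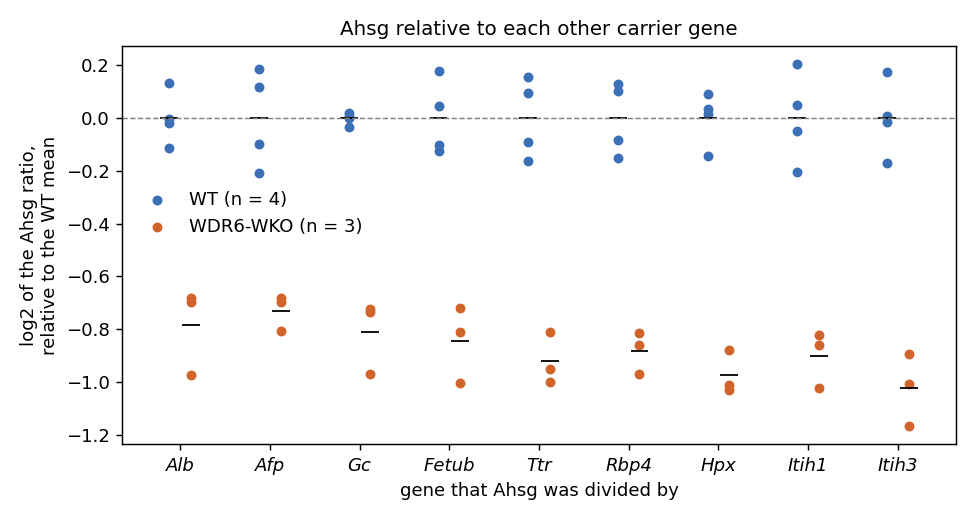
Ratio of Ahsg to each of the other 9 transcripts in each library, on a log2 scale relative to the WT mean, with lines at the group means (4 WT and 3 WDR6-WKO libraries). The 3 WDR6-WKO points lie below all 4 WT points in every column.

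Albumin is the most abundant protein of plasma and the carrier of fatty acids. Alb (ENSMUSG00000029368, chromosome 5, 90460897 to 90476602, plus strand, 15 exons) was at 6360, 7294, 7876 and 7934 CPM in WT and at 6549, 6087 and 6803 CPM in WDR6-WKO. WT replicate 1 was within the range of the WDR6-WKO libraries, and the other 3 WT libraries were above it. The log2 fold change was −0.18 (SE 0.07, interval −0.33 to −0.03), with an edgeR adjusted p of 0.101 and an exact permutation p of 0.143. Without WT replicate 1 it was called (log2 fold change −0.25, edgeR adjusted p = 0.0142). Alb took 0.731% ± 0.0719 of counted reads in WT (SD, n = 4) and 0.655% ± 0.0358 in WDR6-WKO (SD, n = 3), and it ranked 3 among all genes by CPM in WT.

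Alpha-fetoprotein is the albumin of the fetus and is largely shut off after birth. Afp (ENSMUSG00000054932, chromosome 5, 90490737 to 90508907, plus strand, 15 exons) was at 31.6, 33.0, 29.0 and 30.9 CPM in WT and at 28.0, 25.5 and 25.7 CPM in WDR6-WKO. The groups did not overlap, with the closest libraries less than 1 CPM apart. Afp fell by a log2 fold change of −0.24 (SE 0.07, interval −0.39 to −0.08), with an edgeR adjusted p of 0.0466, just past the threshold, and an exact permutation p of 0.0571. The call was lost in 8 of 14 alternatives (edgeR adjusted p from 0.0264 to 0.168 over the alternatives), including the omission of any WT library or of WDR6-WKO replicate 1 or 2. The ratio of Alb to Afp was 238 ± 32.4 in WT (SD, n = 4) and 246 ± 16.8 in WDR6-WKO (SD, n = 3), so no shift between them was seen beyond the spread (exact permutation p = 0.686).

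Gc carries vitamin D and free actin in plasma. Gc (ENSMUSG00000035540, chromosome 5, 89417522 to 89457898, minus strand, 13 exons) was at 2746, 2732, 3077 and 3086 CPM in WT and at 2668, 2470 and 2688 CPM in WDR6-WKO. The groups did not overlap, by a narrow margin. The log2 fold change was −0.16 (SE 0.06, interval −0.28 to −0.04), with an edgeR adjusted p of 0.0745, and it was called without WDR6-WKO replicate 3 (edgeR adjusted p = 0.0180). The ratio of Alb to Gc was 2.53 ± 0.150 in WT (SD, n = 4) and 2.48 ± 0.0417 in WDR6-WKO (SD, n = 3; exact permutation p = 0.657). Afm, which encodes afamin and lies 10.0 kb beyond Afp, was at 5.69 CPM in WT and 6.03 CPM in WDR6-WKO (edgeR adjusted p = 0.746). In all, 4 of the 10 transcripts (Ahsg, Afp, Gc and Fetub) had ranges that did not overlap, each lower in WDR6-WKO, where 11.7% of all tested genes did so in that direction and 23.5% in either.

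Transthyretin and retinol-binding protein form a complex that keeps retinol from being filtered in the kidney. Ttr (ENSMUSG00000061808) was at 476, 486, 449 and 475 CPM in WT and at 460, 466 and 445 CPM in WDR6-WKO. Its groups overlapped, with a log2 fold change of −0.05 (SE 0.04, interval −0.14 to 0.05; edgeR adjusted p = 0.560). Rbp4 (ENSMUSG00000024990, chromosome 19, 38116629 to 38125281, minus strand, 6 exons) was at 478, 485, 460 and 476 CPM in WT and at 464, 476 and 406 CPM in WDR6-WKO. One WDR6-WKO library, replicate 3, was below the rest, and the log2 fold change was −0.08 (SE 0.05, interval −0.20 to 0.03; edgeR adjusted p = 0.352), and −0.0168 without that library (edgeR adjusted p = 0.795). The ratio of Ttr to Rbp4 counts was lowest at 0.975, in WT replicate 3, and highest at 1.10, in WDR6-WKO replicate 3, with means of 0.993 ± 0.0124 in WT (SD, n = 4) and 1.02 ± 0.0649 in WDR6-WKO (SD, n = 3; exact permutation p = 0.571).

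Haemopexin clears free haem by carrying it to its receptor on liver cells. Hpx (ENSMUSG00000030895, chromosome 7, 105591613 to 105600137, minus strand, 10 exons) was at 4268, 4074, 5312 and 4593 CPM in WT and at 4643, 4683 and 4369 CPM in WDR6-WKO. Every WDR6-WKO library was within the WT range. The log2 fold change was 0.00 (SE 0.08, interval −0.16 to 0.16), with an edgeR adjusted p of 0.996. Its sign changed among the alternatives, from −0.05 without WT replicate 2 (edgeR adjusted p = 0.728) to 0.08 without WT replicate 3 (edgeR adjusted p = 0.424).

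Itih1 and Itih3 encode heavy chains that are linked to bikunin, the product of Ambp. Itih1 (ENSMUSG00000006529, chromosome 14, 30929180 to 30943289, minus strand, 22 exons) was at 34.7, 30.2, 29.1 and 33.0 CPM in WT and at 35.8, 29.4 and 26.4 CPM in WDR6-WKO. The WDR6-WKO libraries spread beyond the WT range at both ends, and the log2 fold change was −0.05 (SE 0.10, interval −0.26 to 0.16; edgeR adjusted p = 0.785), of a sign that changed among the alternatives. It was −0.19 without WDR6-WKO replicate 1 and 0.04 without WDR6-WKO replicate 3, and not called in either. Itih3 (ENSMUSG00000006522, chromosome 14, 30908572 to 30923760, minus strand, 22 exons) was at 158, 156, 200 and 160 CPM in WT and at 173, 172 and 178 CPM in WDR6-WKO. WT replicate 3 was above every other library, the remaining WT libraries were below all WDR6-WKO libraries, and the log2 fold change was 0.05 (SE 0.08, interval −0.11 to 0.21; edgeR adjusted p = 0.730). Without WT replicate 3 it was 0.14 (edgeR adjusted p = 0.126).

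The members also varied among themselves from library to library. After the mean of its own genotype was taken from each, Hpx and Itih3 had the highest correlation over the 7 libraries (Pearson r = 0.871), then Alb and Gc (r = 0.847), while Ttr and Itih3 ran opposite ways (r = −0.906). The r of Hpx and Itih3 depends heavily on WT replicate 3, where each deviated most (0.227 and 0.2535, log2 scale). In every WDR6-WKO library Hpx and Itih3 deviated in opposite directions. The correlations are a description over 7 libraries that share their depth and scaling, and carry no test. The genes outside the group whose log2 CPM most resembled Ahsg over the 7 libraries were Ak4 (r = 0.996), Map3k1 (r = 0.995) and Slc25a30 (r = 0.995), and those most like Alb were Ptges (r = 0.987), Col12a1 (r = 0.985) and Filip1l (r = 0.983). Here the genotype means were kept, so these r values include the difference between genotypes. They are the highest among all tested genes outside the group, over only 7 libraries, and carry no test. Ptges was at only 1.58 CPM in WT and 0.924 CPM in WDR6-WKO. Ak4, Map3k1 and Slc25a30 were each called lower in WDR6-WKO, as Ahsg was.

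The neighbours of Ahsg changed in different directions. Kng1 and Kng2, which encode kininogens, and Hrg, which encodes histidine-rich glycoprotein, follow Fetub on chromosome 16, and all carry cystatin domains. Kng1 fell from 385 ± 7.79 to 281 ± 22.1 CPM (SD; log2 fold change −0.45, edgeR adjusted p = 3.77e-05). Kng2 fell from 253 ± 3.62 to 206 ± 8.95 CPM (SD; −0.30, edgeR adjusted p = 5.30e-04). Hrg rose from 13.5 ± 0.871 to 18.3 ± 2.58 CPM (SD; 0.44, edgeR adjusted p = 0.0106). Dnajb11, a chaperone gene 11.6 kb before Ahsg, was at 84.7 CPM in WT and 82.4 CPM in WDR6-WKO (edgeR adjusted p = 0.728). Of 6 cystatin-domain relatives, 2 were called lower and 3 higher, with a median of 0.25. Over all tested genes, 6.18% were called lower and 6.65% higher.

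**Figure D4:**
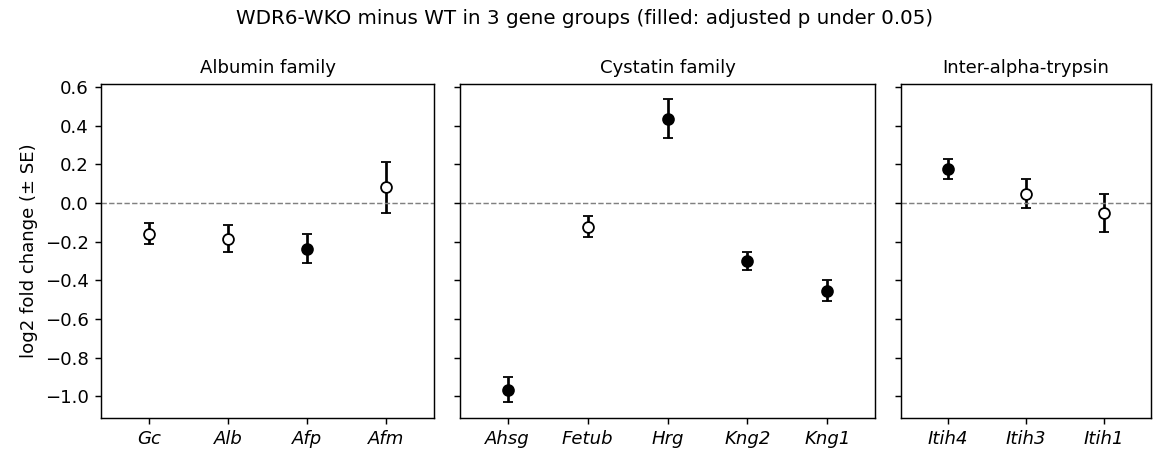
Log2 fold change in WDR6-WKO against WT (points, ± SE), filled where the adjusted p was under 0.05, for relatives in gene order in the albumin, cystatin and inter-alpha-trypsin groups. In the cystatin group Ahsg is at −0.97, Fetub at −0.12 and Hrg at 0.44.

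Among 6 tested partners of the inter-alpha-trypsin inhibitors, 2 were called lower and 1 higher, where 6.18% of all tested genes were called lower and 6.65% higher. Itih2, whose product joins that of Itih1 in the main inhibitor, fell (log2 fold change −0.39, edgeR adjusted p = 1.26e-04), as did Itih5 (−0.29, 0.00271), and Itih4, the neighbour of Itih3, rose (0.18, 0.0415). Ambp, the bikunin gene, was at 688 CPM in WT and 705 CPM in WDR6-WKO (edgeR adjusted p = 0.698). The median of this list was −0.13.

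Among 13 tested further plasma carriers, 3 were called lower and 2 higher, with a median of −0.05. The shares over all tested genes were 6.18% called lower and 6.65% higher. Apom, which carries sphingosine-1-phosphate, fell from 68.6 ± 5.87 to 38.3 ± 3.59 CPM (log2 fold change −0.84, edgeR adjusted p = 4.03e-06; SD, n = 4 and 3). Orm2, an acute-phase carrier, rose (0.64, edgeR adjusted p = 5.25e-05), and Selenop, the selenium carrier, fell (−0.34, edgeR adjusted p = 2.85e-04). Trf, the transferrin gene, was at 256 CPM in WT and 202 CPM in WDR6-WKO (edgeR adjusted p = 0.198).

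Genes that handle the cargo were read against the shares of all tested genes given above, 6.18% called lower and 6.65% higher. Of 11 tested genes of vitamin A and thyroid hormone handling, 1 was called lower and 1 higher, with a median of −0.04. Dio1, which activates thyroid hormone and was at about 1 CPM in WT, fell (log2 fold change −1.37, edgeR adjusted p = 0.0258). Of 10 receptors and recycling genes, 2 were called lower, Lrp1, the haemopexin receptor (−0.19, edgeR adjusted p = 0.0235), and Asgr1, of the asialoglycoprotein receptor (−0.43, edgeR adjusted p = 0.0487), with a median of −0.00. Fcgrt, which recycles albumin, was at 48.6 CPM in WT and 42.3 CPM in WDR6-WKO (edgeR adjusted p = 0.0862).

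Of 19 transcription factors of the albumin and Afp genes, 6 were called lower and none higher, with a median of −0.17, where 6.18% of all tested genes were called lower and 6.65% higher. Onecut1 fell from 4.73 ± 0.499 to 2.07 ± 0.410 CPM (log2 fold change −1.18, edgeR adjusted p = 4.38e-04; SD, n = 4 and 3). Prox1 (−0.62, edgeR adjusted p = 4.76e-05) and Onecut2 (−0.51, edgeR adjusted p = 0.00112) fell as well, and Hnf4a, Foxa1 and Cebpa completed the list. Zhx2 and Zbtb20, repressors of Afp after birth, were at 26.6 and 298 CPM in WT and at 27.6 and 249.9 CPM in WDR6-WKO, and neither was called.

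Albumin, Ahsg, Ttr and Rbp4 are textbook negative acute-phase genes, whose transcripts fall in inflammation, and genes of the opposite kind were read beside them. Of 20 genes listed as positive acute-phase genes, 6 were called lower and 6 higher, with a median of −0.18. Saa4, among those called lower, is the constitutive serum amyloid A gene and not of this kind. Among all tested genes, 6.18% were called lower and 6.65% higher. Il1rn (log2 fold change 1.35, edgeR adjusted p = 2.22e-07) and Lcn2 (0.45, edgeR adjusted p = 1.95e-05) rose with Orm2, Orm1, Saa1 and Saa3, while Fgb, Fga, Lbp, Steap4, Saa4 and Cp were called lower. Of 21 genes that rise as hepatocytes lose their identity in culture, 2 were called lower (Krt18 and Krt8) and 2 higher (Lgals3 and S100a10), with a median of −0.01. The part of either response in the change of Ahsg was not tested.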

How the data were processed

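RNA of primary hepatocytes was sequenced by the authors in 7 libraries after library preparation with a NEBNext Ultra kit, which does not mark strand in its basic form. The authors deposited raw counts per gene. Reads were aligned to mm10 with Bowtie2 2.2.3, per the submitters' processing notes, and the counter and annotation are not given in the sources used here. The lowest row total is 50, and 21 rows bear date-like names in place of symbols. Counts were scaled by TMM and filtered by filterByExpr, and tested with edgeR 4.0.16 (quasi-likelihood, robust, R 4.3.3) over all 14779 genes, with calls at adjusted p under 0.05. Standard errors were derived from the fold change and F. Exact permutation tests used all 35 splits. Levels per kilobase used the principal GENCODE M21 transcript (GRCm38). The text names all 10 members, the 3 called genes of smallest p in each list (with further genes chosen after their values were seen) and the 3 genes most like Ahsg and Alb. Some genes that the rule names are not reported here. The members and lists were chosen with earlier results of these data known. Alternatives covered scaling, filters, DESeq2 1.42.0, limma-voom (limma 3.58.1), a replicate block, the authors' thresholds (absolute log2 fold change of at least 0.35, p under 0.05) and each library left out.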

Additional observations from a re-analysis of the deposited data

Results flagged for a closer look

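Itih3 in WT was the single result whose highest or lowest library stood far from the rest of its group. WT replicate 3 was at 200 CPM and the other 3 WT libraries were at 156 to 160 CPM, a gap of 0.907 of the group's whole range, above Dixon's critical value for 4 samples. The 10 members were examined this way in WT, and chance alone sets apart about 1 in 20 groups. Without that library the log2 fold change of Itih3 was 0.14 in place of 0.05 (edgeR adjusted p = 0.126). Hpx was also highest in WT replicate 3. The WDR6-WKO group of 3 was not examined.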

How the results depend on the processing

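Ahsg was called lower in all 14 alternatives. The number of members called lower was 2 in the main fit and 1 with library sizes alone, 1 with the authors' thresholds, and 1 to 4 with 1 library left out. With library sizes alone the median of the members was −0.0749, and with 1 library left out it was −0.15 to −0.0870. Genes called lower numbered 914 in the main fit, 583 with the authors' thresholds and 462 to 2083 with 1 library left out. Genes called higher numbered 983, 949 and 570 to 2150 in the same order. With library sizes alone 696 genes were called lower and 1212 higher. No member changed direction while called; the causes of these differences were not tested.

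Over all tested genes, the deviations of same-numbered libraries of the 2 genotypes from their group means were hardly correlated (0.0202 to 0.0396). Such low correlations cannot show whether these libraries shared any handling, and the labels give no pairing. With the replicate block 1 member was called lower, and 817 genes were called lower and 945 higher among all genes. Each group has 3 or 4 libraries, so the exact test cannot go below 0.0286.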
